A study of Mus musculus with 12 samples.

Results

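The methionine cycle and the enzymes that spend its methyl groups were followed through 9 genes in mouse hearts: Mat2a, Mat2b, Ahcy, Cbs, Cth, Nnmt, Inmt, Gamt and Pemt. They were picked by symbol from the 55487 rows of the deposited expression table. Each symbol had 1 row, so no measured value was needed to choose between rows, but the genes were proposed with earlier results of these data known, among them the low Inmt level of injured hearts under B12. All mice were labelled wild type, and RNA of heart tissue was sequenced after poly(A) selection from 12 mice, 3 in each of 4 groups. The I/R+B12 mice drank water with vitamin B12 at 50 mg/L for 7 days, at about 4 mL per day, and then had the left anterior descending coronary artery closed for 45 min and reopened for 24 h (ischemia/reperfusion). The I/R mice had the same occlusion and reperfusion on normal water. The Sham+B12 mice drank the B12 water and were operated on without closing the artery. The Sham mice had that operation on normal water. Age, sex, strain and the heart region sampled are not given in the sources used here.

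In this cycle, methionine adenosyltransferase joins methionine to ATP and makes S-adenosylmethionine, the methyl donor of nearly all methyltransferases. Each methyl transfer leaves S-adenosylhomocysteine, which is split into adenosine and homocysteine. Homocysteine is either methylated back to methionine by an enzyme that needs vitamin B12, or passed through transsulfuration into cysteine, from which glutathione and hydrogen sulfide are made.

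Expression is given in FPKM, that is, sequenced fragments divided by transcript length and by the size of the library, so levels of different genes can be set side by side. Differences are log2 differences of FPKM + 1 from a limma fit of all 12 libraries. Of all rows, 13001 reached an FPKM of 1 in at least 3 libraries and were tested, and 8 of the 9 genes were among them. Cbs stayed below that level in all 12 libraries. A gene was called when its p adjusted over the 13001 genes was under 0.05. Each library held 11490 to 12612 genes at an FPKM of 1 or more, and the estimated depth of the 12 libraries was 23.75 to 29.0 M fragments. The hearts carried their defining markers: the summed FPKM of 6 cardiomyocyte genes was 17000 to 24100 in I/R+B12, 16600 to 21300 in I/R, 21000 to 24700 in Sham+B12 and 21100 to 25200 in Sham. Many libraries lay nearest to a library of another group. I/R mouse 3 and Sham mouse 2 were nearest to each other (r = 0.982 over all tested genes). The library nearest to Sham mouse 3 was I/R+B12 mouse 1 (r = 0.969), and the library nearest to I/R+B12 mouse 3 was Sham mouse 3 (r = 0.955). I/R+B12 mouse 1 was nearest to I/R mouse 1 (r = 0.979). Sham mouse 1 and Sham+B12 mice 2 and 3 were nearest to a sham-operated library on the other water. Only Sham+B12 mouse 1, I/R mice 1 and 2 and I/R+B12 mouse 2 were nearest to a library of their own group. The summed FPKM of 5 neutrophil markers was 712, 1940 and 96.1 in the I/R+B12 mice, 1210, 1180 and 14.6 in the I/R mice, 0.65, 33.6 and 5.65 in the Sham+B12 mice and 6.17, 10.6 and 61.1 in the Sham mice. Mouse 3 was thus the lowest of the I/R+B12 and of the I/R mice and the highest of the Sham mice.

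Cth, an enzyme of transsulfuration, fell in I/R+B12 hearts relative to Sham+B12 hearts, where 10.4% of all tested genes were called and 3.62% were called lower. Inmt, a methyltransferase, was the other one of the 8 tested genes under the threshold there, but its low level was known when the genes were proposed, so it is described and not counted as a test. Both calls were lost when any 1 of 4 libraries was left out, namely I/R+B12 mouse 2 or any Sham+B12 mouse. At most 0.38% of all tested genes were called then. The call of Cth was also lost without the filter on low values (adjusted p = 0.062 in limma), when 0.971% of all genes fitted were called. It was lost too with only the compared groups fitted (adjusted p = 0.082 in limma), when 1.85% were called. Inmt averaged 4.6 ± 4.37 FPKM in I/R+B12, 23.4 ± 16.6 in I/R, 47.1 ± 4.35 in Sham+B12 and 52.4 ± 14.3 in Sham (SD, n = 3 each). Gamt was lowest in the I/R+B12 group too, at 3.4 ± 1.53 FPKM against 8 ± 1.45 in I/R, but it was not called in the fit described here. None of the 8 genes was called in any of the other 4 tests, that is, I/R set against Sham, I/R+B12 set against I/R, Sham+B12 set against Sham, and the interaction of B12 with I/R. Over all tested genes, 0% were called in those 4. In bulk tissue, fewer cells of a type and less RNA per cell cannot be told apart.

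**Figure D1:**
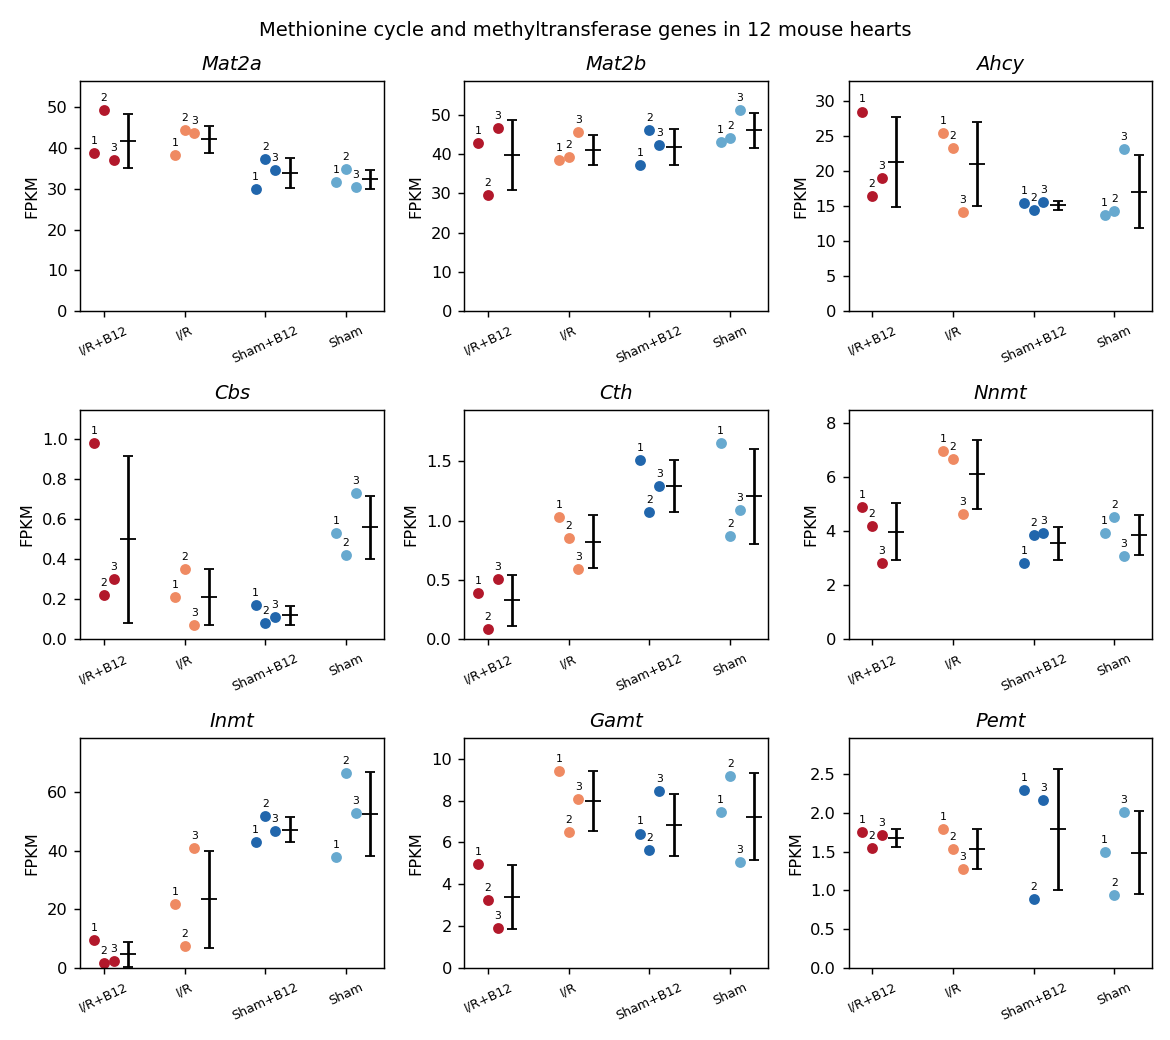
FPKM of the 9 genes in each library, 1 panel a gene, with groups from left to right I/R+B12, I/R, Sham+B12 and Sham, 1 point a mouse with its number, and a black bar for the group mean ± SD. The I/R+B12 points of Inmt lie between 1.79 and 9.63 FPKM and the Sham+B12 points between 42.95 and 51.64, while the Mat2b and Pemt points of all 4 groups overlap.

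In Sham hearts the order of levels, from high to low, was Inmt, Mat2b, Mat2a, Ahcy, Gamt, Nnmt, Pemt, Cth and Cbs. Inmt and Mat2b overlapped there, and so did Pemt and Cth, while the libraries of every other neighbouring pair were apart. The order was the same in Sham+B12 hearts, where Mat2b also overlapped with Mat2a. In I/R hearts Mat2a and Mat2b led and overlapped, and Inmt came next with a range, 7.62 to 40.78 FPKM, that reached across Mat2a, Mat2b, Ahcy and Gamt. Gamt and Nnmt overlapped there as well. In I/R+B12 hearts Inmt stood behind Mat2a, Mat2b and Ahcy. Inmt, Nnmt and Gamt overlapped with each other there, as did Mat2a with Mat2b, and Cth, last of the 9, with Cbs.

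The promoter sequences of 3 genes are shown: Inmt and Gamt, which were lowest in I/R+B12 hearts, and Mat2a, a gene of S-adenosylmethionine synthesis. The I/R libraries of Mat2a lay above the Sham libraries, as did those of 18.8% of all tested genes. The sequences come from RefSeq (GRCm38.p6), which listed windows for 7 of the 9 genes. None was listed for Cth, also lowest in I/R+B12 hearts, or for Nnmt, whose I/R libraries also lay above the Sham libraries. Each is on the minus strand, runs 5′ to 3′ and ends at the base before the outermost annotated start of the gene. Capitals mark matches to TATAAA, to GGGCGG and to CCAAT on either strand.
Inmt, chr6:55175044-55175240: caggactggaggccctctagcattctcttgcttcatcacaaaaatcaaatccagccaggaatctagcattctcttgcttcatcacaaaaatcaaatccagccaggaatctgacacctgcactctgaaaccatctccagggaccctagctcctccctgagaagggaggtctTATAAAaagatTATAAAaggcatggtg
Gamt, chr10:80261013-80261262: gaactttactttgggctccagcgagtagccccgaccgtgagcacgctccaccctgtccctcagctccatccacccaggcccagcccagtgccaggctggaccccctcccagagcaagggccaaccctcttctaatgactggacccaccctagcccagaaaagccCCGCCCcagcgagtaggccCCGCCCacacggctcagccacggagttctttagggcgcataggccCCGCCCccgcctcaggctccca
Mat2a, chr6:72439559-72439806: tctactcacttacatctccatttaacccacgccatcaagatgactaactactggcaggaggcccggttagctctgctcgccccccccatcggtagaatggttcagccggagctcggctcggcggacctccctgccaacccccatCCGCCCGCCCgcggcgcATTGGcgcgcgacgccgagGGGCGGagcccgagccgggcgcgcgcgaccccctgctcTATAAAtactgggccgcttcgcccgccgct

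The Inmt window held 2 TATAAA matches and no GGGCGG or CCAAT match, and 45.7% of its bases were G or C. It also held a tandem repeat. A run of 49 bases that began 235 bases upstream of the RefSeq start began again at 189, so the copies overlapped by a few bases. The Gamt window held 3 GGGCGG matches, written CCGCCC on the printed strand, no match to the other two motifs, and 66.8% G or C. The Mat2a window held all 3 motifs, with 2 of its 3 GGGCGG matches overlapping each other, and 67.3% G or C. Over 250 bases upstream of 32851 RefSeq starts, 12.4% of windows held TATAAA, 32.7% held GGGCGG and 33.8% held CCAAT on either strand. The printed windows of Inmt (197 bases) and Mat2a (248 bases) are shorter, because another annotated start lies upstream of the RefSeq start. The TATAAA matches of Inmt begin 80 and 69 bases upstream of its RefSeq start, farther than their distance from the printed end. The matches describe letters in these windows and not bound sites.

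Mat2a (ENSMUSG00000053907, GRCm38 chromosome 6, 72432799 to 72439558, minus strand) encodes the catalytic subunit of the methionine adenosyltransferase found outside the liver. It measured 38.69, 49.46 and 37.11 FPKM in the I/R+B12 mice, 38.26, 44.43 and 43.75 in the I/R mice, 29.97, 37.29 and 34.55 in the Sham+B12 mice and 31.72, 34.89 and 30.4 in the Sham mice. Every I/R library lay above every Sham library. The log2 difference of I/R from Sham was 0.37 (SE 0.14), with an adjusted p of 0.4 in limma, so it was not called. In I/R+B12 against Sham+B12 the difference was 0.29 (SE 0.14, adjusted p = 0.181 in limma) and the libraries overlapped at 1 mouse, I/R+B12 mouse 3. Between I/R+B12 and I/R the Mat2a difference was -0.02 (SE 0.14). A further transcript, Particl, overlaps Mat2a on the opposite strand, from 72439051 to 72439558, and was listed at 1.41 to 2.81 FPKM. That reads were counted by strand is not stated, so reads from this stretch may have been assigned to either.

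Mat2b (ENSMUSG00000042032, chromosome 11, 40679314 to 40695203, minus strand) encodes the regulatory subunit that binds the Mat2a product. Its libraries overlapped in all 4 pairs of groups compared. It averaged 39.7 ± 8.95 FPKM in I/R+B12, 41.1 ± 3.91 in I/R, 41.9 ± 4.53 in Sham+B12 and 46.2 ± 4.5 in Sham (SD, n = 3 each). The lowest of its 12 libraries was I/R+B12 mouse 2, at 29.63 FPKM, the same library that held the highest Mat2a value.

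Ahcy (ENSMUSG00000027597, chromosome 2, 155059310 to 155074497, minus strand) encodes adenosylhomocysteinase, the enzyme that splits S-adenosylhomocysteine. It measured 28.52, 16.38 and 18.97 FPKM in the I/R+B12 mice, 25.51, 23.29 and 14.17 in the I/R mice, 15.4, 14.37 and 15.61 in the Sham+B12 mice and 13.78, 14.29 and 23.09 in the Sham mice. All I/R+B12 libraries were above all Sham+B12 libraries. The log2 difference was 0.43 (SE 0.26) and was not called, with an adjusted p of 0.274 in limma. The I/R and Sham libraries of Ahcy overlapped through I/R mouse 3 and Sham mouse 3, which are also among the libraries nearest to one of the other surgery. With all libraries the I/R difference of Ahcy from Sham was 0.28 (SE 0.26, adjusted p = 0.666 in limma), and without those 2 libraries it was 0.76 (adjusted p = 0.157 in limma).

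Cbs and Cth encode the pair of transsulfuration enzymes: cystathionine beta-synthase, which condenses homocysteine with serine, and cystathionine gamma-lyase, which releases cysteine. Both were low in heart, Cbs below an FPKM of 1 in all libraries and Cth near 1 in sham-operated hearts. Cth (ENSMUSG00000028179, chromosome 3, 157894248 to 157925077, minus strand) measured 0.39, 0.09 and 0.51 FPKM in the I/R+B12 mice, 1.03, 0.85 and 0.59 in the I/R mice, 1.51, 1.07 and 1.29 in the Sham+B12 mice and 1.65, 0.87 and 1.09 in the Sham mice. All 3 of its I/R+B12 libraries lay below every library of the other groups, the closest at 0.51 FPKM against 0.59 in I/R mouse 3. The share of all tested genes with such a separation from all other groups was not counted. Cth fell in I/R+B12 against Sham+B12, by 0.79 on the log2 scale of FPKM + 1 (SE 0.19, 95% interval -1.22 to -0.37, adjusted p = 0.0336 in limma). The pseudocount of 1 shrinks a change at this level: the ratio of the mean FPKM values was 0.256. At the estimated depths a level of 0.1 FPKM stood for 3.0 to 3.5 fragments of a 1500 nt transcript, so the lowest Cth value rests on few reads. Against I/R, the I/R+B12 difference of Cth was -0.46 (SE 0.19, adjusted p = 0.149 in limma) and was not called, although the libraries did not overlap.

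The calls of Cth and Inmt were lost when single libraries were left out. Neither gene was called, that is, 0 of the 8 genes were, when Sham+B12 mouse 1, 2 or 3 or I/R+B12 mouse 2 was left out. Of all tested genes, 0%, 0.247%, 0% and 0.38% were called then, in that order of mice. The adjusted p of Cth was 0.118, 0.0706, 0.109 and 0.108 in limma, in the same order. It was 0.0526 in limma without I/R mouse 2, when 5% of all tested genes were called. Without I/R+B12 mouse 3, which lay nearest to a Sham library, the difference of Cth was -0.89 (adjusted p = 0.0322 in limma). When I/R+B12 mouse 1 was left out, 3 of the 8 genes were called, with Gamt added to Cth and Inmt, but so were 29.7% of all tested genes.

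Cbs (ENSMUSG00000024039, chromosome 17, 31608894 to 31637238, minus strand) measured 0.98, 0.22 and 0.3 FPKM in the I/R+B12 mice, 0.21, 0.35 and 0.07 in the I/R mice, 0.17, 0.08 and 0.11 in the Sham+B12 mice and 0.53, 0.42 and 0.73 in the Sham mice. All I/R+B12 values lay above all Sham+B12 values, all I/R values lay below all Sham values, and all Sham+B12 values lay below all Sham values. The share of genes at such low levels with groups apart was not counted. The lowest I/R value and the highest Sham value came from I/R mouse 3 and Sham mouse 3, each nearest to a library of the other surgery. The I/R and Sham values of mice 1 and 2 were apart as well. Fitted without the filter on low values, over 26986 genes, the difference of Sham+B12 from Sham was -0.47 (SE 0.17, adjusted p = 1 in limma), and the interaction of B12 with I/R was 0.76 (SE 0.24) and was not called, with an adjusted p of 0.55 in limma.

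**Figure D2:**
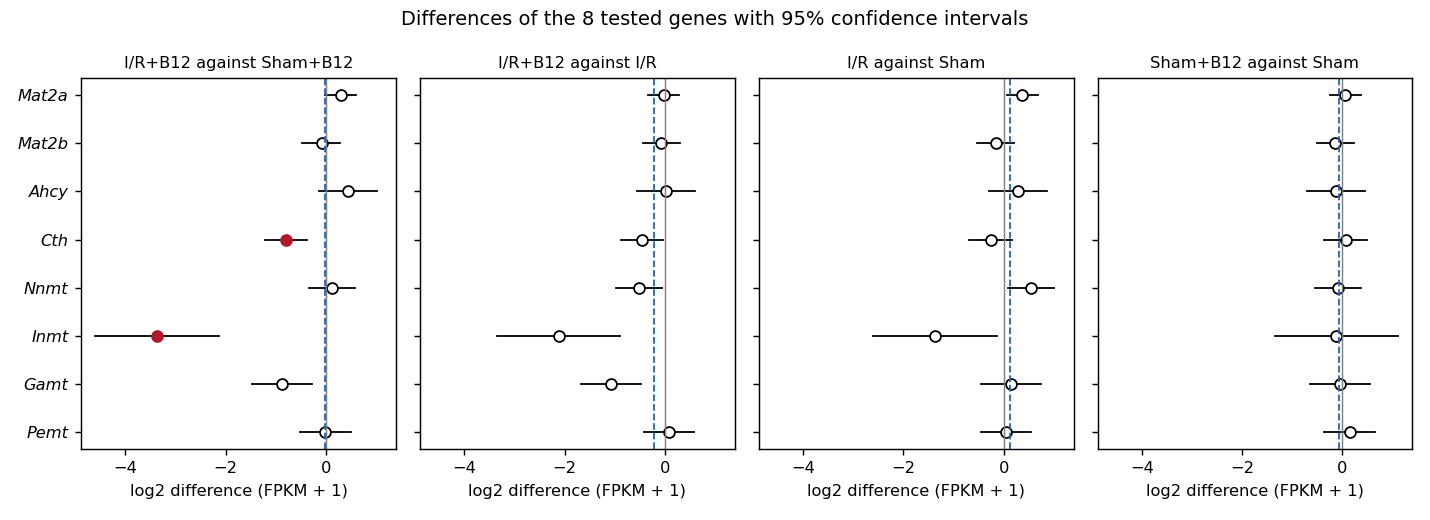
Log2 differences of FPKM + 1 for the 8 tested genes in the 4 pairwise comparisons, each a point with its 95% interval from limma, filled where called, and with the median of all 13001 tested genes as a dashed line. Intervals for Sham+B12 against Sham all cross 0, and the Inmt interval for I/R+B12 against Sham+B12 runs from -4.6 to -2.14.

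Among the methyltransferases, Inmt (ENSMUSG00000003477, chromosome 6, 55170626 to 55175043, minus strand), which encodes an enzyme that methylates indoleamines such as tryptamine, had the widest range. It measured 9.63, 1.79 and 2.38 FPKM in the I/R+B12 mice, 21.77, 7.62 and 40.78 in the I/R mice, 42.95, 51.64 and 46.84 in the Sham+B12 mice and 37.93, 66.43 and 52.94 in the Sham mice. The I/R+B12 libraries lay far below every sham-operated library, and the highest of them, 9.63 FPKM in mouse 1, lay above the lowest I/R library. As a share of the Sham mean, the group means were 8.78% in I/R+B12, 44.7% in I/R and 89.9% in Sham+B12. The log2 difference of I/R+B12 from Sham+B12 was -3.37 (SE 0.56), given here as a description because that result was known when the genes were proposed.

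The Inmt difference of I/R from Sham was -1.37 (SE 0.56, adjusted p = 0.416 in limma) and was not called. The difference of I/R+B12 from I/R, -2.12 (SE 0.56), holds the low I/R+B12 values known beforehand and is also given as a description. The I/R+B12 and I/R libraries overlapped, and so did the I/R and Sham libraries. These 2 comparisons share the I/R libraries. The I/R library with the highest Inmt value, mouse 3, was the one nearest to a Sham library. Without it and Sham mouse 3, the difference of I/R+B12 from I/R was -1.59 and that of I/R from Sham was -1.87 (adjusted p = 0.189 in limma). The interaction asks whether the effect of injury differed between B12 water and normal water. For Inmt, the injury difference with B12 less the one without it was -2 (SE 0.79), which contains the known contrast whole and is a description as well.

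Gamt (ENSMUSG00000020150, chromosome 10, 80258151 to 80261012, minus strand) encodes guanidinoacetate methyltransferase, which carries out the last step of creatine synthesis. It measured 4.99, 3.27 and 1.93 FPKM in the I/R+B12 mice, 9.4, 6.51 and 8.08 in the I/R mice, 6.43, 5.62 and 8.48 in the Sham+B12 mice and 7.46, 9.2 and 5.05 in the Sham mice. Every one of its I/R+B12 libraries lay below all 9 others, the highest, 4.99 FPKM, by a narrow margin below Sham mouse 3 at 5.05. The share of all tested genes with such a separation from all 9 was not counted. The log2 difference from I/R was -1.08 (SE 0.27, adjusted p = 0.0824 in limma) and that from Sham+B12 was -0.88 (SE 0.27, adjusted p = 0.0595). Neither was called in this fit. The one from Sham+B12 was called with median-ratio scaling (adjusted p = 0.0404), quantile normalization (adjusted p = 0.0353) and library weights (adjusted p = 0.00986). Of all tested genes, 14.9%, 13.8% and 23.7% were called then. The one from I/R was called with library weights (adjusted p = 0.00769), as were 33.3% of all tested genes. Estimation of these weights stopped before it converged. Without I/R+B12 mouse 1 both were called, at -1.33 from I/R (adjusted p = 0.00414) and -1.13 from Sham+B12 (adjusted p = 0.0109). So were 34.2% and 29.7% of all tested genes. The interaction for Gamt was -1.03 (SE 0.39, adjusted p = 0.401 in limma). Without I/R+B12 mouse 1 it was -1.28 (adjusted p = 0.0385), and with library weights it was -1.17 (adjusted p = 0.0403). Of all tested genes, 14.3% and 14.1% were called in the interaction then. I/R against Sham gave 0.15 for Gamt (SE 0.27), with overlapping libraries.

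Nnmt (ENSMUSG00000032271, chromosome 9, 48591877 to 48605153, minus strand) encodes nicotinamide N-methyltransferase. It measured 4.91, 4.18 and 2.84 FPKM in the I/R+B12 mice, 6.98, 6.66 and 4.65 in the I/R mice, 2.83, 3.86 and 3.95 in the Sham+B12 mice and 3.95, 4.54 and 3.09 in the Sham mice. The I/R libraries were all above the Sham libraries, the lowest by a narrow margin. The I/R difference from Sham was 0.54 (SE 0.21) and the I/R+B12 difference from I/R was -0.52 (SE 0.21). Neither was called, with adjusted p values of 0.408 and 0.137 in limma. Without I/R+B12 mouse 1 the I/R+B12 difference from I/R was -0.65 and was called (adjusted p = 0.0381), as were 34.2% of all tested genes then. The Nnmt difference of I/R+B12 from Sham+B12 was 0.12 (SE 0.21).

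Pemt (ENSMUSG00000000301, chromosome 11, 59970614 to 60046489, minus strand) encodes phosphatidylethanolamine N-methyltransferase, a major consumer of S-adenosylmethionine in liver. In heart it was low, with 1.55 to 1.76 FPKM in the I/R+B12 mice, 1.28 to 1.79 in the I/R mice, 0.89 to 2.3 in the Sham+B12 mice and 0.94 to 2.01 in the Sham mice. All groups overlapped, and its log2 differences in the 4 pairwise comparisons were between -0.02 and 0.15.

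B12 in sham-operated hearts gave no separation of any tested gene: 0 of the 8 had groups that did not overlap, where 10.5% of all tested genes did, and none reached an unadjusted p under 0.05 in limma, as 220 of all tested genes did. Cbs, which was not tested, was lower without overlap, at 0.08 to 0.17 FPKM in Sham+B12 hearts and 0.42 to 0.73 in Sham hearts. The differences of the tested genes ran from -0.14 for Mat2b to 0.15 for Pemt. Their precision varied: the 95% interval was -0.24 to 0.37 for Mat2a, -0.36 to 0.49 for Cth and -1.35 to 1.11 for Inmt.

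Counts over the 8 tested genes stood against the background as follows. In I/R+B12 against Sham+B12, Ahcy was higher without overlap, where 19.1% of all tested genes were, and Cth, Gamt and the already known Inmt were lower without overlap, where 13.2% were. Between I/R and Sham, Mat2a and Nnmt were higher without overlap, where 18.8% of all tested genes were, and none was lower, where 3.6% were. Set against I/R, the I/R+B12 libraries of Cth and Gamt were lower without overlap, as were those of 18.8% of all tested genes. An unadjusted p under 0.05 in limma was reached by 3 of the 8 genes, the already known Inmt among them, between I/R+B12 and Sham+B12. Of all tested genes, 4199 reached it there. The numbers were 4 and 3711 between I/R+B12 and I/R, 3 and 1516 between I/R and Sham, and 2 and 1595 for the interaction. Inmt is also among the 4 and among the 2 of the interaction, and both contrasts contain its known low values. The median difference was -0.06 for the 8 and -0.02 for all tested genes between I/R+B12 and Sham+B12, -0.26 and -0.21 between I/R+B12 and I/R, and 0.1 and 0.13 between I/R and Sham.

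Markers of other cells moved with some of these genes in part of the comparisons. The summed FPKM of 5 macrophage markers, none of them at 0, was 159, 59.7 and 72 in the I/R+B12 mice, 259, 227 and 180 in the I/R mice, 132, 167 and 149 in the Sham+B12 mice and 157, 200 and 115 in the Sham mice. Like Nnmt, this sum was highest in I/R hearts, and 2 of the 3 I/R+B12 libraries held the lowest sums, as they did for Gamt. The largest part of the sum was C1qa, at 98.47, 36.16 and 57.71 FPKM in the I/R+B12 mice. Cd68 and Fcgr1 of I/R+B12 mouse 1, at 27.56 and 5.61 FPKM, lay above every Sham+B12 library. Those of I/R+B12 mouse 3, at 4.8 and 0.82 FPKM, lay below every Sham+B12 library. The summed FPKM of 8 fibroblast markers, none at 0, was 402 to 474 in I/R+B12, 818 to 893 in I/R, 476 to 625 in Sham+B12 and 587 to 894 in Sham. Between I/R and Sham, Inmt did not follow this sum. Inmt averaged 23.4 FPKM in I/R and 52.4 in Sham, while the sums of Sham mice 1 and 3, 587 and 661, lay below every I/R sum. The fibroblast markers did not all move alike. Between I/R+B12 and Sham+B12, Lum was lower, at 17.44, 15.04 and 17.38 FPKM against 23.05, 31.81 and 30.99. Pdgfra was higher, at 15.17, 10.25 and 12.98 FPKM against 7.94, 8.02 and 8.31, and the libraries of Tcf21 overlapped. Of 5 lung markers, all were listed at 0 in I/R+B12, I/R and Sham+B12 libraries and 4 in Sham libraries. The part of these cells in the differences of Inmt, Gamt and Nnmt was not tested.

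**Figure D3:**
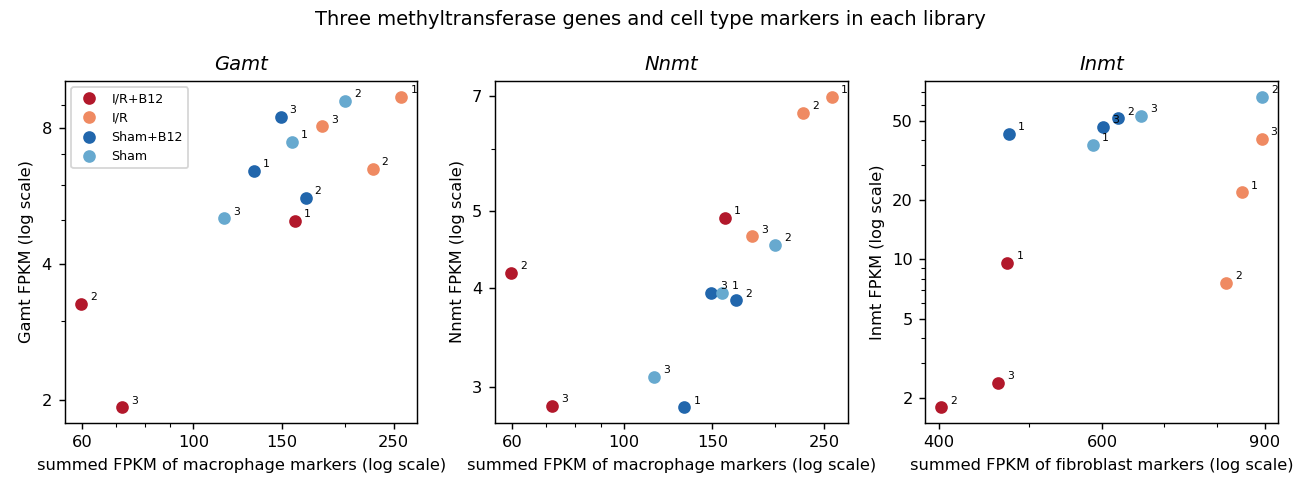
FPKM of Gamt and Nnmt against the summed FPKM of 5 macrophage markers, and of Inmt against the summed FPKM of 8 fibroblast markers, all on log axes, 1 point a mouse with its number and coloured by group. The I/R+B12 points have the lowest Gamt values, 1.93 to 4.99 FPKM, and the lowest fibroblast sums, 402 to 474.

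The genes most like each gene in pattern, by Pearson r of log2(FPKM + 1) over the 12 libraries, are given as a description. Each was the best of 13001 candidates, and the libraries share groups and the scaling to a total. For Inmt they were Snai3 (r = 0.98), Sh2d4a (0.97) and Lrba (0.94). Within the 6 injured libraries these r values were 0.98, 0.96 and 0.97, and within the 6 sham-operated libraries 0.48, 0.52 and 0.02. For Gamt they were Csf1r (0.95), which is also in the macrophage list above, Mblac2 (0.94) and Tnfrsf21 (0.94). For Nnmt they were Was (0.97), Btk (0.97) and Ddx58 (0.96), the first a regulator of actin in blood cells, the second a kinase of B cells and myeloid cells, and the third a sensor of viral RNA. For Cth they were Cln6 (0.96), Pik3ip1 (0.96) and Acaa1a (0.95), for Mat2a Slfn5 (0.95), Rybp (0.93) and Malt1 (0.91), and for Ahcy Sra1, Ptprf and Tbce (0.95 each). Between the genes themselves, r over the 12 libraries was -0.79 for Mat2a and Cth, and it was -0.49 within the 6 injured and -0.54 within the 6 sham-operated libraries. For Inmt and Gamt r was 0.76 over all, 0.88 within the injured and 0.15 within the sham-operated libraries. For Inmt and Cth the sign turned, with 0.75 over all, 0.61 within the injured and -0.98 within the sham-operated libraries.

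Neighbouring pathways were read from 5 lists of other genes. In I/R+B12 against Sham+B12, 8 of their 48 tested genes were called, where 10.4% of all tested genes were. Of the 7 tested genes of the rest of the methionine cycle, Slc25a26, the mitochondrial carrier of S-adenosylmethionine, fell by 0.79 (adjusted p = 0.0405 in limma), at 7.24 ± 1.86 FPKM in I/R+B12 and 13 ± 1.43 in Sham+B12 (SD, n = 3 each). Mat1a, Bhmt and Bhmt2, the liver forms of cycle enzymes, were too low to be tested, as were Mettl7b, Asmt and Ckmt1 of the other lists. Of 10 tested genes of cysteine and sulfide use, Ethe1 and Sqor, both enzymes of mitochondrial sulfide oxidation, fell, by 0.57 (adjusted p = 0.0329) and 0.41 (adjusted p = 0.0379). Of 10 other tested small-molecule methyltransferases, As3mt, the arsenic methyltransferase, fell by 0.64 (adjusted p = 0.0458).

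In the list of polyamines and methionine salvage, 6 of 11 tested genes had positive and 5 had negative differences. Sat1, Srm and Smox were called and rose, and none of the list was called lower. Sat1, which acetylates spermidine and spermine, measured 35.14, 264.66 and 83.04 FPKM in the I/R+B12 mice, against 17.14, 23.86 and 15.2 in the Sham+B12 mice. All I/R+B12 libraries were higher, as were those of 19.1% of all tested genes, and for Sat1 they differed widely among themselves. The log2 differences were 2.26 for Sat1 (adjusted p = 0.0305), 1.18 for Srm, which makes spermidine (adjusted p = 0.0393), and 1.02 for Smox, which oxidizes spermine (adjusted p = 0.042), all in limma. Of 10 tested genes of creatine and choline use, Chka, the choline kinase upstream of phosphatidylcholine, rose by 1.17 (adjusted p = 0.0241), at 7.81 ± 2.24 FPKM in I/R+B12 and 2.86 ± 0.722 in Sham+B12 (SD, n = 3 each).

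The medians of the 5 lists in I/R+B12 against Sham+B12 were -0.22 for the rest of the cycle, -0.05 for cysteine and sulfide use, -0.43 for the other methyltransferases, 0.01 for polyamines and salvage and -0.35 for creatine and choline, beside -0.02 for all tested genes. Like those of Cth and Inmt, these calls were lost with single libraries left out. Without Sham+B12 mouse 1, 2 or 3 or I/R+B12 mouse 2, 0 genes of the lists were called. Of all tested genes, 0%, 0.247%, 0% and 0.38% were called then, in that order. Between 3 and 5 genes of the lists were called without Sham mouse 1 (3), Sham mouse 2 (3), I/R mouse 1 (5) or I/R mouse 2 (3). The shares of all tested genes were 6.89%, 6.5%, 7.1% and 5%, in that order. The count was 18 of 48 without I/R+B12 mouse 1, when 29.7% of all tested genes were called, and 13 without I/R+B12 mouse 3, when 12.3% were.

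**Figure D4:**
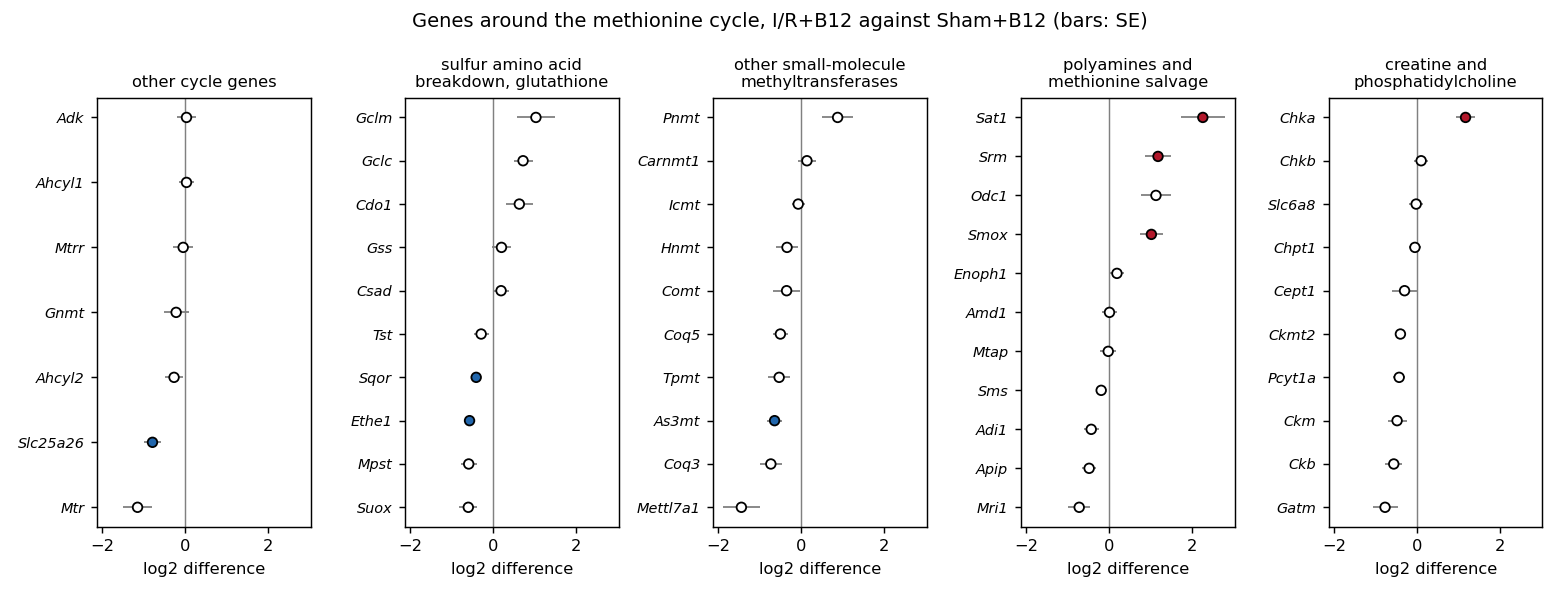
Log2 differences of FPKM + 1 in I/R+B12 against Sham+B12 for the tested genes of the 5 lists, 1 panel a list and 1 point a gene with a bar for its SE, filled red where called higher and blue where called lower. Of the called genes, Sat1 has the largest difference, 2.26, and the 4 genes called lower lie between -0.79 and -0.41.

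In the other contrasts no gene of the 5 lists was called, and the gene with the smallest p of each list is named. In I/R+B12 against I/R these were Gatm, which makes the substrate of Gamt (0.487 ± 0.337 FPKM in I/R+B12 hearts and 3.05 ± 0.481 in I/R hearts, SD, n = 3 each, difference -1.46, SE 0.3, adjusted p = 0.0739 in limma), Mtr, the B12-dependent methionine synthase (-1.19, adjusted p = 0.0903), Mettl7a1 (-1.41, adjusted p = 0.0981), Sqor (-0.32, adjusted p = 0.0988) and Sms, which makes spermine (-0.37, adjusted p = 0.0912). Every I/R+B12 library of Gatm, at 0.84, 0.45 and 0.17 FPKM, lay below every I/R library, at 3.01, 2.59 and 3.55. The same held for 18.8% of all tested genes. Without I/R+B12 mouse 1, 18 of the 48 list genes and 34.2% of all tested genes were called in this contrast, and without Sham mouse 3, 1 list gene and 0.525% of all tested genes.

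In I/R against Sham the genes of smallest p were Gatm (0.66, adjusted p = 0.431 in limma), Gnmt (0.29, adjusted p = 0.698), Coq5 (-0.15, adjusted p = 0.742), Mpst (-0.26, adjusted p = 0.574) and Sms (0.28, adjusted p = 0.4). In Sham+B12 against Sham they were Ckmt2, Ahcyl1, Pnmt, Ethe1 and Apip, all with an adjusted p of 0.999 in limma. Pnmt, which makes adrenaline, averaged 0.44 ± 0.191 FPKM in Sham+B12 and 2.02 ± 1.98 in Sham (SD, n = 3 each). In the interaction they were Chka (1.13), Mtr (-1.44), As3mt (-0.58), Sms (-0.47) and Sqor (-0.4), with adjusted p values of 0.387 to 0.403 in limma, and 10 of the 48 list genes were called without I/R+B12 mouse 1, beside 14.3% of all tested genes.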

How the data were processed

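Gene expression was deposited by the authors as FPKM, with a column for each of 12 libraries and 4 columns of group means, which were not used. HISAT2, StringTie and mm10 are named in the submitters' processing notes, with no versions, and the annotation release is not given in the sources used here. TRIzol RNA was poly(A)-selected and made into paired-end TruSeq libraries, per the labels' protocols. That the reads were counted by strand is not stated. The table holds no counts, so depth was estimated from the spacing of the lowest values: 83.2% to 89.4% of low values lay within 0.15 of a whole fragment. Genes that reached 1 FPKM in 3 libraries were kept, and log2(FPKM + 1) was fitted in limma 3.58.1 (R 4.3.3, variance trend) as 4 groups, with 4 pairwise contrasts and the interaction. P-values were two-sided and Benjamini-Hochberg adjusted within each contrast. They rest on a spread between mice pooled over the 4 groups of 3 mice and drawn towards a trend over all tested genes. The fit was tested on simulated data. Same-numbered libraries of different groups did not deviate together (mean r of 0.01 over 18 pairs), so replicate numbers were not used as pairs. Gene positions come from GENCODE M21 on GRCm38. The genes, lists and rules were chosen with earlier results of these data known. All 9 genes are named. Of each list, called genes up to 4, or else the gene with the smallest p, are named, as are the 3 genes most like each gene whose values are given in full. Alternatives changed the pseudocount (0.5, 0.1), the filter (none, an FPKM of 5), scaling, libraries fitted, library weights and replicate block. Median-ratio scaling brought the median differences of all genes, -0.21 to 0.13 on the log2 scale as deposited, to between -0.02 and 0.01.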

Additional observations from a re-analysis of the deposited data

Results flagged for a closer look

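Cbs, the first enzyme of transsulfuration, was singled out because its 2 injury contrasts ran in opposite directions in every library. It averaged 0.5 FPKM in I/R+B12, above every Sham+B12 library in all 3 mice, where the Sham+B12 mean was 0.12. It averaged 0.21 FPKM in I/R, below every Sham library in all 3 mice, where the Sham mean was 0.56. All 12 values were under an FPKM of 1, so Cbs was not tested with the filter on low values. The share of genes at such levels with groups apart was not counted. Fitted without that filter, the difference of I/R+B12 from Sham+B12 was 0.39 (SE 0.17, adjusted p = 0.24 in limma) and that of I/R from Sham was -0.37 (SE 0.17, adjusted p = 0.599). The Sham+B12 libraries were also all below the Sham libraries, with a difference of -0.47 (SE 0.17, adjusted p = 1), and I/R+B12 differed from I/R by 0.28 (SE 0.17, adjusted p = 0.42), with overlap. The interaction, the difference between the injury contrasts, was 0.76 (SE 0.24) and was not called (adjusted p = 0.55 in limma).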

How the results depend on the processing

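With 3 mice a group and 1 table of FPKM, the calls were unstable to single libraries, and values near an FPKM of 0.1 rest on few fragments. The 8 tested genes gave 40 differences over 5 contrasts and 937 results under 24 alternatives. Of these, 847 kept direction and side of the threshold, 11 kept direction but lost the call, 16 gained a call and 63 changed sign. No difference that was called changed sign. The cause of these changes was not tested. Estimation of the library weights stopped before it converged. Counts of called list genes under the alternatives were added after seeing the data.

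Between I/R+B12 and Sham+B12, 2 of the 8 genes, Cth and the already known Inmt, and 8 of the list genes were called, beside 10.4% of all tested genes. The counts were 1 and 1 without a filter, beside 0.971%, and 1 and 1 with only the compared groups fitted, beside 1.85%. With the filter at an FPKM of 5, which leaves Cth, Nnmt and Pemt out, 1 of the 5 genes tested was called, beside 13.7%. Quantile normalization and median-ratio scaling each called 3 of the 8, with Gamt added, and 13 of 48 list genes, beside 13.8% and 14.9% of all tested genes; library weights called 3 and 17, beside 23.7%. Of all calls, 65.2% were higher as deposited, 48.2% with quantile normalization and 52.3% with median-ratio scaling. With leave-one-out the counts ran from 0 to 3 of the 8 and 0 to 18 of the lists, beside 0% to 29.7% of all tested genes. With library weights, 4 of the 8 (Mat2a, Ahcy, Nnmt and Inmt) and 19 list genes were called between I/R and Sham (33.9% of all tested genes), 2 and 15 between I/R+B12 and I/R (33.3%), and 1 and 11 in the interaction (14.1%), all against 0. Leave-one-out gave 0 to 3 and 0 to 18 between I/R+B12 and I/R, beside 0% to 34.2% of all tested genes. In the interaction it gave 0 to 2 and 0 to 10, beside 0% to 14.3%. With the replicate block the same 2 genes and 4 list genes were called between I/R+B12 and Sham+B12, beside 8.13%.

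Signs changed only for differences between -0.13 and 0.15. Between I/R+B12 and Sham+B12, Pemt was 0.02 with a pseudocount of 0.1 and 0.04 with quantile normalization. Library weights gave 0.02 for Mat2b and -0.12 for Nnmt. Between I/R+B12 and I/R, with median-ratio scaling Mat2a was 0.21 and Mat2b 0.17, with quantile normalization 0.09 and 0.04, and without Sham 3 and I/R 3 both were 0.01. Mat2b was 0.1 with library weights, and Ahcy was -0.24 with them and -0.22 without Sham 3 and I/R 3. Between I/R and Sham, Gamt was -0.05 with quantile normalization, -0.13 with library weights and -0.07 without Sham 3 and I/R 3, and Pemt was -0.12 with quantile normalization and -0.04 with median-ratio scaling. Between Sham+B12 and Sham, Gamt was 0.03 with quantile normalization and 0.01 with median-ratio scaling, Ahcy 0.04 with library weights and 0.1 without Sham 3 and I/R 3, Cth -0.03 and Inmt 0.02 with library weights. In the interaction, Mat2a was 0.07 and Pemt 0.03 with median-ratio scaling, Pemt 0.16 with quantile normalization, and Ahcy -0.28 with library weights and -0.32 without Sham 3 and I/R 3.

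With single libraries left out, signs also changed within these ranges. Between I/R+B12 and Sham+B12 they were -0.22 to 0.1 for Mat2b, -0.02 to 0.29 for Nnmt and -0.27 to 0.13 for Pemt. Between I/R+B12 and I/R they were -0.15 to 0.06 for Mat2a, -0.19 to 0.12 for Mat2b and -0.22 to 0.18 for Ahcy. Between I/R and Sham they were -0.06 to 0.32 for Gamt and -0.12 to 0.2 for Pemt. Between Sham+B12 and Sham they were -0.25 to 0.1 for Ahcy, -0.04 to 0.21 for Cth, -0.21 to 0.02 for Nnmt, -0.33 to 0.07 for Inmt, -0.26 to 0.12 for Gamt and -0.02 to 0.4 for Pemt. In the interaction they were -0.06 to 0.26 for Mat2b, -0.1 to 0.31 for Ahcy and -0.32 to 0.1 for Pemt.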
